A study of Danio rerio with 8 samples.

Results

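Cardiomyocytes (CMs) sorted from the hearts of tcf21-/- zebrafish larvae were compared with CMs sorted from tcf21+/+ larvae by RNA-seq. The genes were taken by a rule that used no difference between the genotypes, a mean value of at least 10 over the 8 libraries of the experiment, and 16077 of the 21286 genes in the deposited table passed it. The tcf21-/- CMs had 2 libraries and the tcf21+/+ CMs had 2, which makes 4 CM libraries of the 8, the other 4 being epicardial cells (EpiCs) of the same genotypes.

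All larvae were 96 hours post fertilization (hpf) and carried both the myocardial reporter Tg(myl7:mCherry-CAAX) and the epicardial reporter tcf21:nls.EGFP, and the CM gate took cells with the myocardial reporter and without the epicardial one. The tcf21-/- larvae were homozygous for bns427, a frameshift deletion allele made with CRISPR/Cas9. They came from crosses of heterozygotes, were picked by their lack of head muscles, and were kept only where EpiCs covered much of the ventricle. The tcf21+/+ larvae came from crosses of tcf21+/+ siblings, so genotype and parentage cannot be told apart in this comparison. Dissected hearts were pooled and sorted over several sessions. The study calls the libraries biological replicates, but which clutches and sessions went into each is not given in the sources used here, so the p-values measure the spread between these libraries, some of which may be technical.

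The epicardium is the outer cell layer of the heart. It spreads over the ventricle during larval life in zebrafish and is known as a source of secreted factors, such as fibroblast growth factors (FGFs), insulin-like growth factors and retinoic acid, that act on the myocardium below it. Tcf21 is a basic helix-loop-helix transcription factor of the epicardium and of head muscle precursors, and it is not a gene of differentiated CMs. The comparison therefore asks what a mutation in an epicardial transcription factor goes with in the neighbouring muscle cells. CMs themselves are known by their sarcomere proteins, which make up a large part of their RNA, and in the zebrafish ventricle at this stage they grow, divide and start to form trabeculae.

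Values are read counts per gene that the authors divided by 1 factor per library and rounded. The low values showed what 1 read was worth, from which depth on genes, in units of 1e6 reads, was estimated at 8.32 and 9.39 in the tcf21-/- CM libraries, against 6.44 and 8.64 in the tcf21+/+ CM libraries. The tcf21+/+ libraries were the less alike pair, with a correlation of log2 values of 0.92, against 0.939 between the tcf21-/- libraries. tcf21 itself (chromosome 23, 31554269 to 31555696, danRer11) had values of 5 and 12 in tcf21-/- CMs, against 80 and 28 in tcf21+/+ CMs, with a log2 fold change of -2.46 ± 0.54 (SE) that missed the threshold (adjusted p = 0.137). In EpiCs it had 1636 and 1454 in tcf21-/- libraries, against 1600 and 1851 in tcf21+/+ libraries, so reads of the gene were still present with the deletion allele, and its level does not check the genotype labels.

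The sorted cells had the RNA of CMs. The 14 CM markers summed to 129997 and 120407 in tcf21-/- CMs, against 135815 and 126306 in tcf21+/+ CMs, and the groups overlapped. The titin genes ttn.2 and ttn.1 were the highest of them, at 31141 and 31533 for ttn.2 in tcf21-/- CMs, against 29598 and 33042 in tcf21+/+ CMs. The atrial myosin gene myh6 had 11363 and 10116 in tcf21-/- CMs, against 10406 and 11547 in tcf21+/+ CMs. The myosin heavy chain gene myh7 had 13531 and 11576 in tcf21-/- CMs, against 17679 and 12290 in tcf21+/+ CMs. The regulatory light chain gene myl7, whose promoter drives the reporter of the gate, had 2759 and 2470 in tcf21-/- CMs, against 3718 and 2466 in tcf21+/+ CMs. None of these genes passed the test.

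Markers of other cells were also read. The 14 epicardial markers summed to 4426 and 5458 in tcf21-/- CMs, against 4912 and 4885 in tcf21+/+ CMs, and 1 of them, upk3b, was at 0 in all 4 CM libraries. Most of this sum was podxl, and postnb, wt1a and tbx18 were at 26 or less in each CM library. Of the 13 epicardial markers tested, 5 had a positive and 8 a negative log2 fold change. Their median of -0.314 turned to 0.82 without tcf21-/- replicate 1 and was -1.49 without tcf21-/- replicate 2. Sums of endocardial and endothelial and of erythrocyte markers overlapped between the genotypes. Smooth muscle markers summed to 5127 and 4358 in tcf21-/- CMs, against 6909 and 5742 in tcf21+/+ CMs. Fibroblast markers summed to 3190 and 4306 in tcf21-/- CMs, against 1860 and 3167 in tcf21+/+ CMs, and cartilage, thrombocyte and epidermal sums, all smaller, were also higher in both tcf21-/- libraries. Of the 17 fibroblast markers tested, 10 had a positive and 6 a negative log2 fold change. Their median of 0.194 turned to -0.108 without tcf21+/+ replicate 1 and to -0.473 without tcf21-/- replicate 2. The leukocyte and macrophage markers had sums of 3690 and 5144 in tcf21-/- CMs, against 1194 and 1140 in tcf21+/+ CMs, so that each tcf21-/- library was between 3.09 and 4.51 times each tcf21+/+ library.

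**Figure D1:**
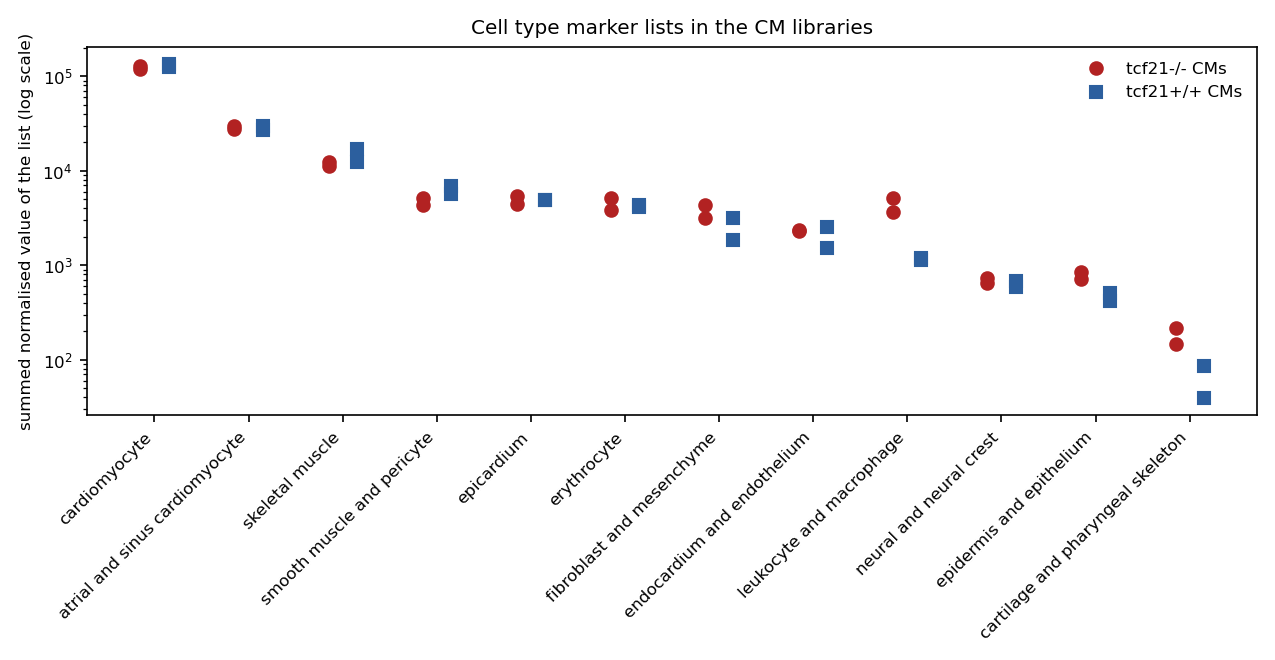
Summed normalised values (y axis, log scale) of 12 lists of cell type markers (x axis) in the CM libraries, with 1 red circle for each of the 2 tcf21-/- libraries and 1 blue square for each of the 2 tcf21+/+ libraries. The leukocyte and macrophage sums of 3690 and 5144 in tcf21-/- CMs lie above 1194 and 1140 in tcf21+/+ CMs, while the CM marker sums overlap.

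The leukocyte and macrophage list had the largest share of members without overlap among the marker lists. Of its 18 markers tested, 17 had a positive log2 fold change, 16 (88.9%) had no overlap and were higher in tcf21-/- CMs, and 8 had an unadjusted p under 0.05, but none was called. Over all genes tested, 20.6% did not overlap and were higher in tcf21-/- CMs, and 7.33% were higher at an unadjusted p under 0.05. The median log2 fold change of the list was 2.02, and it was 2.04 and 2.06 without either tcf21+/+ replicate, against 0.059 for tcf21-/- over tcf21+/+ EpiCs. Many of these markers were at or near 0 in EpiCs, where ptprc was at 0 in all libraries and mpeg1.1 at 13 or less. The EpiC median therefore cannot show whether leukocyte RNA differed there. The macrophage perforin gene mpeg1.1 had 658 and 808 in tcf21-/- CMs, against 241 and 234 in tcf21+/+ CMs. The actin-bundling L-plastin gene lcp1 had 556 and 742 in tcf21-/- CMs, against 77 and 213 in tcf21+/+ CMs, and the pan-leukocyte phosphatase gene ptprc had 75 and 128 in tcf21-/- CMs, against 17 and 0 in tcf21+/+ CMs. The chemokine receptor gene ccr9a had 96 and 88 in tcf21-/- CMs, against 0 and 13 in tcf21+/+ CMs, and was at 0 in all EpiC libraries. The genotypes overlapped in mpeg1.2, at 17 and 0 in tcf21-/- CMs, against 0 and 29 in tcf21+/+ CMs, and in the cytokine gene il1b, at 63 and 132 in tcf21-/- CMs, against 77 and 17 in tcf21+/+ CMs. mmp13a, which did not pass the filter, was at 0 in all CM libraries. In RNA from sorted cells in bulk, more cells of a type and more RNA per cell cannot be told apart. The part of leukocyte RNA in the gene differences below was not tested.

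The 2 tcf21+/+ libraries also differed from each other in a way that went with the length of genes on the chromosome. When the 11926 genes with a mean CM value of at least 50 were put in 10 equal groups by gene span, the median log2 fold change of tcf21-/- over tcf21+/+ CMs was -0.325 in the shortest group (median span 3.1 kb) and 0.265 in the longest (126 kb). Without tcf21+/+ replicate 1 the groups had medians from -0.0857 to 0.0491. Without tcf21+/+ replicate 2 the shortest and longest groups had -0.587 and 0.493. In EpiCs they had -0.142 and 0.114. The median of each gene list is therefore given below with and without tcf21+/+ replicate 1.

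**Figure D2:**
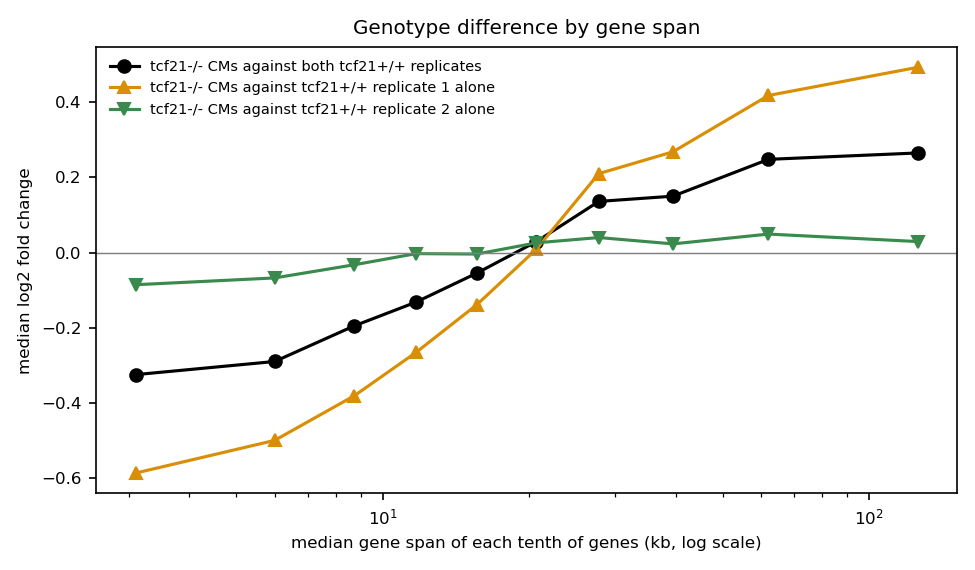
Median log2 fold change of tcf21-/- over tcf21+/+ CMs (y axis) in 10 groups of genes by their span on the chromosome (x axis, kb, log scale), with both tcf21+/+ replicates (black circles), with replicate 1 alone (orange triangles) and with replicate 2 alone (green triangles). The black line runs from -0.325 to 0.265, and the green line stays between -0.0857 and 0.0491.

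A gene was called where its adjusted p was under 0.05 and its absolute log2 fold change was at least 0.59. In this fit 40 genes rose in tcf21-/- CMs (0.249% of the 16077 tested) and 19 fell (0.118%). Adjusted p-values lay between 0.0105 and 0.0492 for the genes that rose and between 0.0235 and 0.0491 for those that fell. An unadjusted p under 0.05 was reached by 1179 genes (7.33%) on the higher side and 785 (4.88%) on the lower side, and 3304 genes (20.6%) and 3095 (19.3%) were higher or lower with no overlap between the genotypes. Leaving out 1 library moved the counts or changed which genes were called. Without tcf21-/- CM replicate 1 the fit called 7 genes higher and 6 lower, and without tcf21-/- CM replicate 2 it called 8 and 20. Without tcf21+/+ CM replicate 1 it called 42 and 14, of which 17 and 5 were among the 40 and 19. Without tcf21+/+ CM replicate 2 it called 961 and 397, which held all 40 and all 19. Leaving out any 1 EpiC library, which only adds to the estimate of the spread here, left at most 1 gene higher and 0 lower.

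Low values were frequent among the called genes. Their median of the mean CM value was 24.8 for the genes that rose and 22.8 for those that fell. In 23 of the 40 genes that rose, both tcf21+/+ CM libraries were at 0, and in 8 of the 19 that fell, both tcf21-/- CM libraries were. For these a fold is given as a bound, with the group at 0 set to a floor of 3 reads over its libraries, which covers counting error only. The bounds lay between 6.05-fold and 278-fold for the genes that rose and between 9.83-fold and 27.6-fold for those that fell. Many had higher values in EpiCs. In 27 of the 40 genes that rose and 14 of the 19 that fell, all 4 EpiC values were above all 4 CM values. Over all genes tested, 26.3% had this layout. The filter on the mean of 8 libraries bears on these counts. cdh18a, mxra8a, aff2, tm4sf18, si:ch211-212k18.9, pdgfc and il15l had a mean CM value under 10 and passed it only through their EpiC values. The CM values of further called genes were also too low to pass it without EpiC values. These were mkxa, CU927890.1, FO834850.1, itga4, tmem154, abtb2a, mtmr1a, adamts2, zgc:154093, adgrd1, si:dkey-6n6.1, stim1b, CABZ01061591.1, ogfrl1, HACD4, basp1, lrrc4ca, saxo2, bco1l and dpt. cyth4a, pik3r6a, saxo2, bco1l, dpt and fgf8b passed it only with the CM values of the genotype in which they were higher, so their calls are not independent of the filter.

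**Figure D3:**
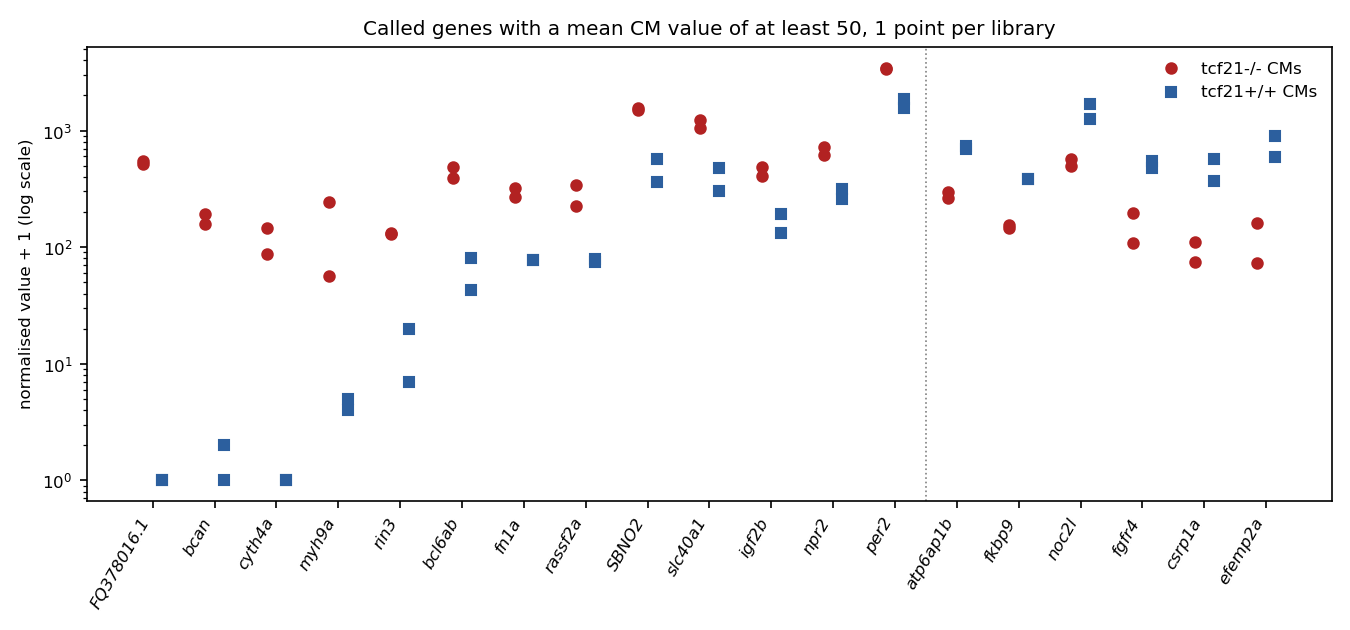
Normalised value plus 1 (y axis, log scale) of the called genes with a mean CM value of at least 50 (x axis), 13 that rose left of the dotted line and 6 that fell right of it, with 1 red circle per tcf21-/- CM library and 1 blue square per tcf21+/+ CM library. The genotypes do not overlap in any of these genes, and FQ378016.1 and cyth4a were at 0 in both tcf21+/+ libraries.

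The gene with the smallest adjusted p was FQ378016.1 (chromosome 5, 58487368 to 58512609), which the deposited annotation describes as a phosphodiesterase. It had 512 and 547 in tcf21-/- CMs, against 0 and 0 in tcf21+/+ CMs, and so was at least 278-fold higher (adjusted p = 0.0105). It also rose in EpiCs, with 392 and 367 in tcf21-/- libraries, against 3 and 13 in tcf21+/+ libraries (log2 fold change 5.67, adjusted p = 0.0336). All 4 tcf21-/- libraries of both cell types were thus above all 4 tcf21+/+ libraries. Its call was the one made most often, in 14 of 19 alternative fits.

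A gene of the class I major histocompatibility complex, mhc1uba, whose products present peptides to T cells, showed the same layout. It had 29 and 83 in tcf21-/- CMs, against 0 and 0 in tcf21+/+ CMs, at least 29.4-fold higher. In EpiCs it had 316 and 262 in tcf21-/- libraries, against 2 and 1 in tcf21+/+ libraries (adjusted p = 0.0274). Class I genes differ between fish, and the genotypes had different parents, so parental alleles and the mutation cannot be told apart here. The authors also left out reads that aligned to several places, so its level is uncertain.

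Of the genes that rose, 3 of 40 were also called in the same direction in EpiCs, the third being the clock gene per2. None of the 19 that fell was. The difference of the genotype effects between CMs and EpiCs passed an adjusted p of 0.05 in 0 of 16077 genes in limma's test (smallest adjusted p 0.0992), with 1137 genes at an unadjusted p under 0.05. Of the 59 called genes, 53 were among these 1137, a description only, since the same CM values called them.

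Genes known from blood cells in mammals were among those that rose. cyth4a, for cytohesin 4, an exchange factor for small GTPases, had 144 and 87 in tcf21-/- CMs, against 0 and 0 in tcf21+/+ CMs, at least 60.7-fold higher. pik3r6a, for a regulatory subunit of phosphoinositide 3-kinase gamma, had 52 and 74 in tcf21-/- CMs, against 0 and 0 in tcf21+/+ CMs, at least 33.1-fold higher. Both had values of at most 2 in every EpiC library, unlike hck and rin3, whose EpiC values were all above their CM values. As given above, cyth4a and pik3r6a passed the filter only with their tcf21-/- CM values, so their calls are not independent of it. The Src-family kinase gene hck had 51 and 66 in tcf21-/- CMs, against 2 and 0 in tcf21+/+ CMs. rin3, for an exchange factor of the endosomal GTPase Rab5, had 129 and 132 in tcf21-/- CMs, against 6 and 19 in tcf21+/+ CMs (log2 fold change 3.47 ± 0.48, adjusted p = 0.0378). The leukocyte marker sums given above were also higher in tcf21-/- CMs, and their part in these calls was not tested. Called genes with immune roles were on the lower side too. nod2 had 3 and 0 in tcf21-/- CMs, against 57 and 41 in tcf21+/+ CMs (adjusted p = 0.0491), and the cytokine gene il15l, given below, also fell.

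Iron export and anti-inflammatory control are functions that mammalian macrophages also share with other cells. slc40a1, for ferroportin, the only known exporter of cellular iron, had 1042 and 1227 in tcf21-/- CMs, against 302 and 479 in tcf21+/+ CMs (log2 fold change 1.57 ± 0.25, adjusted p = 0.0491). SBNO2, a transcriptional co-regulator known from interleukin-10 signalling in mammals, had 1497 and 1550 in tcf21-/- CMs, against 359 and 570 in tcf21+/+ CMs (1.75 ± 0.27, adjusted p = 0.0457). bcl6ab, related to the transcriptional repressor BCL6, had 484 and 387 in tcf21-/- CMs, against 80 and 42 in tcf21+/+ CMs (2.88 ± 0.39, adjusted p = 0.0367). In all 3 genes every tcf21-/- CM value was above every tcf21+/+ CM value. In EpiCs slc40a1 had 1649 and 2150 in tcf21-/- libraries, against 1279 and 1262 in tcf21+/+ libraries, all above its CM values. SBNO2 had 1619 and 1983 in tcf21-/- EpiCs, against 1289 and 895 in tcf21+/+ EpiCs. bcl6ab had 251 and 215 in tcf21-/- EpiCs, against 166 and 136 in tcf21+/+ EpiCs. These genes were thus also higher in tcf21-/- EpiCs with no overlap, but none was called there.

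A hormone ligand and a hormone receptor of growth rose. igf2b, for an insulin-like growth factor, had 408 and 488 in tcf21-/- CMs, against 132 and 192 in tcf21+/+ CMs (log2 fold change 1.48 ± 0.21, adjusted p = 0.0401). It was much higher in EpiCs, at 4591 and 4406 in tcf21-/- libraries, against 4158 and 4228 in tcf21+/+ libraries. npr2, for the guanylyl cyclase receptor of C-type natriuretic peptide, had 718 and 612 in tcf21-/- CMs, against 258 and 314 in tcf21+/+ CMs (1.22 ± 0.19, adjusted p = 0.0485). rassf2a, a member of the Ras association domain family, had 226 and 337 in tcf21-/- CMs, against 74 and 78 in tcf21+/+ CMs (1.85 ± 0.29, adjusted p = 0.0491).

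Genes of the extracellular matrix rose and fell. fn1a, for fibronectin, had 319 and 266 in tcf21-/- CMs, against 77 and 76 in tcf21+/+ CMs (log2 fold change 1.92 ± 0.18, adjusted p = 0.0235). It was one of the higher genes of EpiCs, with 9548 and 11702 in tcf21-/- libraries, against 7506 and 6871 in tcf21+/+ libraries. bcan, for the chondroitin sulphate proteoglycan brevican, had 156 and 193 in tcf21-/- CMs, against 0 and 1 in tcf21+/+ CMs. In EpiCs bcan had 81 and 28 in tcf21-/- libraries, against 5 and 0 in tcf21+/+ libraries (log2 fold change 4.32, adjusted p = 0.209). Every tcf21-/- library of both cell types was thus above every tcf21+/+ library, as for FQ378016.1 and mhc1uba. The small proteoglycan decorin gene dcn had 19 and 65 in tcf21-/- CMs, against 0 and 2 in tcf21+/+ CMs. adamts2, for an enzyme that trims procollagen, had 26 and 18 in tcf21-/- CMs, against 0 and 0 in tcf21+/+ CMs, at least 11.6-fold higher. itga4, for the alpha chain of a fibronectin receptor, had 22 and 36 in tcf21-/- CMs, against 0 and 0 in tcf21+/+ CMs. dcn, adamts2 and itga4 had all EpiC values above all CM values, and dcn is also on the list of fibroblast markers. The epicardial marker sums of the CM libraries overlapped between genotypes, while the fibroblast sums were 3190 and 4306 in tcf21-/- CMs, against 1860 and 3167 in tcf21+/+ CMs. The epicardial sums were mostly podxl, and the median of the epicardial markers changed sign without tcf21-/- replicate 1. The median of the fibroblast markers also changed sign when single libraries were left out, as given above. The part of other cells in these values was not tested.

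On the other side were genes of elastic fibres. efemp2a, for fibulin-4, which is needed to assemble elastin, had 72 and 161 in tcf21-/- CMs, against 593 and 896 in tcf21+/+ CMs (log2 fold change -2.75 ± 0.35, adjusted p = 0.0364). In EpiCs it had 1691 and 1660 in tcf21-/- libraries, against 5934 and 5836 in tcf21+/+ libraries, a log2 fold change of -1.81 that missed the threshold (adjusted p = 0.114). loxl1, for a lysyl oxidase that cross-links elastin, had 8 and 12 in tcf21-/- CMs, against 61 and 96 in tcf21+/+ CMs (-2.84 ± 0.30, adjusted p = 0.0235). In EpiCs loxl1 had 6868 and 8482 in tcf21-/- libraries, against 5585 and 4797 in tcf21+/+ libraries. Its genotype effect differed between the cell types by -3.40 ± 0.43 on the log2 scale, the gene being among those at the smallest adjusted p for this difference, 0.0992. dpt, for the matrix protein dermatopontin, had 0 and 0 in tcf21-/- CMs, against 24 and 22 in tcf21+/+ CMs, at least 14.6-fold lower. It passed the filter only with its tcf21+/+ CM values, so its call is not independent of the filter.

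Among genes of growth factor signalling, the receptor gene fgfr4 and the ligand genes fgf8b and pdgfc fell, while igf2b, given above, rose. fgfr4, for an FGF receptor and named by the study for these cells, had 107 and 197 in tcf21-/- CMs, against 478 and 542 in tcf21+/+ CMs (log2 fold change -1.80 ± 0.26, adjusted p = 0.0422). In EpiCs, where it was over 10 times as high, it had 6607 and 7053 in tcf21-/- libraries, against 6714 and 6325 in tcf21+/+ libraries. fgf8b, for an FGF ligand, had 0 and 0 in tcf21-/- CMs, against 41 and 46 in tcf21+/+ CMs, at least 27.6-fold lower, and had at most 1 in every EpiC library. Its call was the one made least often, in 2 of the 18 alternative fits that tested it. fgf8b passed the filter only with its tcf21+/+ CM values, so its call is not independent of the filter. pdgfc, for a platelet-derived growth factor, had 0 and 0 in tcf21-/- CMs, against 17 and 14 in tcf21+/+ CMs, at least 9.83-fold lower. il15l, for an interleukin-15-like cytokine, had 0 and 0 in tcf21-/- CMs, against 14 and 17 in tcf21+/+ CMs, at least 9.83-fold lower.

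The remaining genes with a mean CM value of at least 50 that fell had roles inside the cell. csrp1a, for a LIM protein of the actin cytoskeleton, had 74 and 110 in tcf21-/- CMs, against 569 and 366 in tcf21+/+ CMs (log2 fold change -2.33 ± 0.28, adjusted p = 0.0342). noc2l, for a nucleolar protein, had 568 and 499 in tcf21-/- CMs, against 1696 and 1266 in tcf21+/+ CMs (-1.46 ± 0.23, adjusted p = 0.0491). fkbp9, for a prolyl isomerase of the endoplasmic reticulum, had 145 and 153 in tcf21-/- CMs, against 381 and 382 in tcf21+/+ CMs (-1.35 ± 0.18, adjusted p = 0.0367). atp6ap1b, for an accessory subunit of the proton pump of lysosomes, had 264 and 298 in tcf21-/- CMs, against 692 and 730 in tcf21+/+ CMs (-1.34 ± 0.19, adjusted p = 0.0397). The smooth muscle marker sums given above were also lower, but the list was mixed. Of its 13 genes tested, 5 had a positive and 8 a negative log2 fold change. Its median of -0.46 turned to 0.488 without tcf21-/- replicate 1. The 2 that were lower with no overlap (15.4%, against 19.3% over all genes tested) were acta2 and tagln. tagln had 257 and 254 in tcf21-/- CMs, against 757 and 431 in tcf21+/+ CMs. The part of smooth muscle RNA in csrp1a was not tested.

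Non-muscle myosin and calcium entry were represented at low level. myh9a, for a heavy chain of non-muscle myosin, had 55 and 245 in tcf21-/- CMs, against 3 and 4 in tcf21+/+ CMs, with the tcf21-/- libraries far apart. ppp1r14ab, of a family of inhibitors of myosin phosphatase, had 74 and 58 in tcf21-/- CMs, against 2 and 6 in tcf21+/+ CMs. stim1b, for the calcium sensor of the endoplasmic reticulum, had 30 and 12 in tcf21-/- CMs, against 0 and 0 in tcf21+/+ CMs, at least 11-fold higher. plxna3, for a semaphorin receptor, had 67 and 73 in tcf21-/- CMs, against 3 and 3 in tcf21+/+ CMs (log2 fold change 4.15 ± 0.41, adjusted p = 0.0235).

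The rest of the called genes had a mean CM value under 50. Those that rose were fgl2a, saxo2, tent5ab, bco1l, mkxa, CU927890.1 (endoglin in the deposited annotation), FO834850.1, tmem154, abtb2a, mtmr1a, zgc:154093, adgrd1, si:dkey-6n6.1, cdh18a, mxra8a, aff2, tm4sf18 and CABZ01061591.1. Those that fell were si:ch211-212k18.9, ogfrl1, nod2, HACD4, basp1, frmpd1b, lrrc4ca and arhgef40. fgl2a, fibrinogen-like 2, had the highest bound of those that rose, with 62 and 54 in tcf21-/- CMs, against 0 and 0 in tcf21+/+ CMs, at least 30.5-fold higher. bco1l, for a carotenoid-cleaving enzyme, had 32 and 31 in tcf21-/- CMs, against 0 and 0 in tcf21+/+ CMs, while in EpiCs it had 0 and 0 in tcf21-/- libraries, against 14 and 24 in tcf21+/+ libraries. The difference of its genotype effects between cell types was also at an adjusted p of 0.0992. bco1l passed the filter only with its tcf21-/- CM values, so its call is not independent of the filter.

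Pathways were read from 46 lists of genes. No list was tested as a whole, and each is described by the number of its members that did not overlap between genotypes and by its median log2 fold change, beside the 20.6% higher, 19.3% lower and median of 0 over all genes tested. Of the 46 lists, 32 had an absolute median over 0.1, and 11 of these kept their sign and stayed over 0.1 without tcf21+/+ replicate 1. In 4 of the 32 the sign turned without that library. On estimated reads without scaling, the median over all genes was 0.271.

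**Figure D4:**
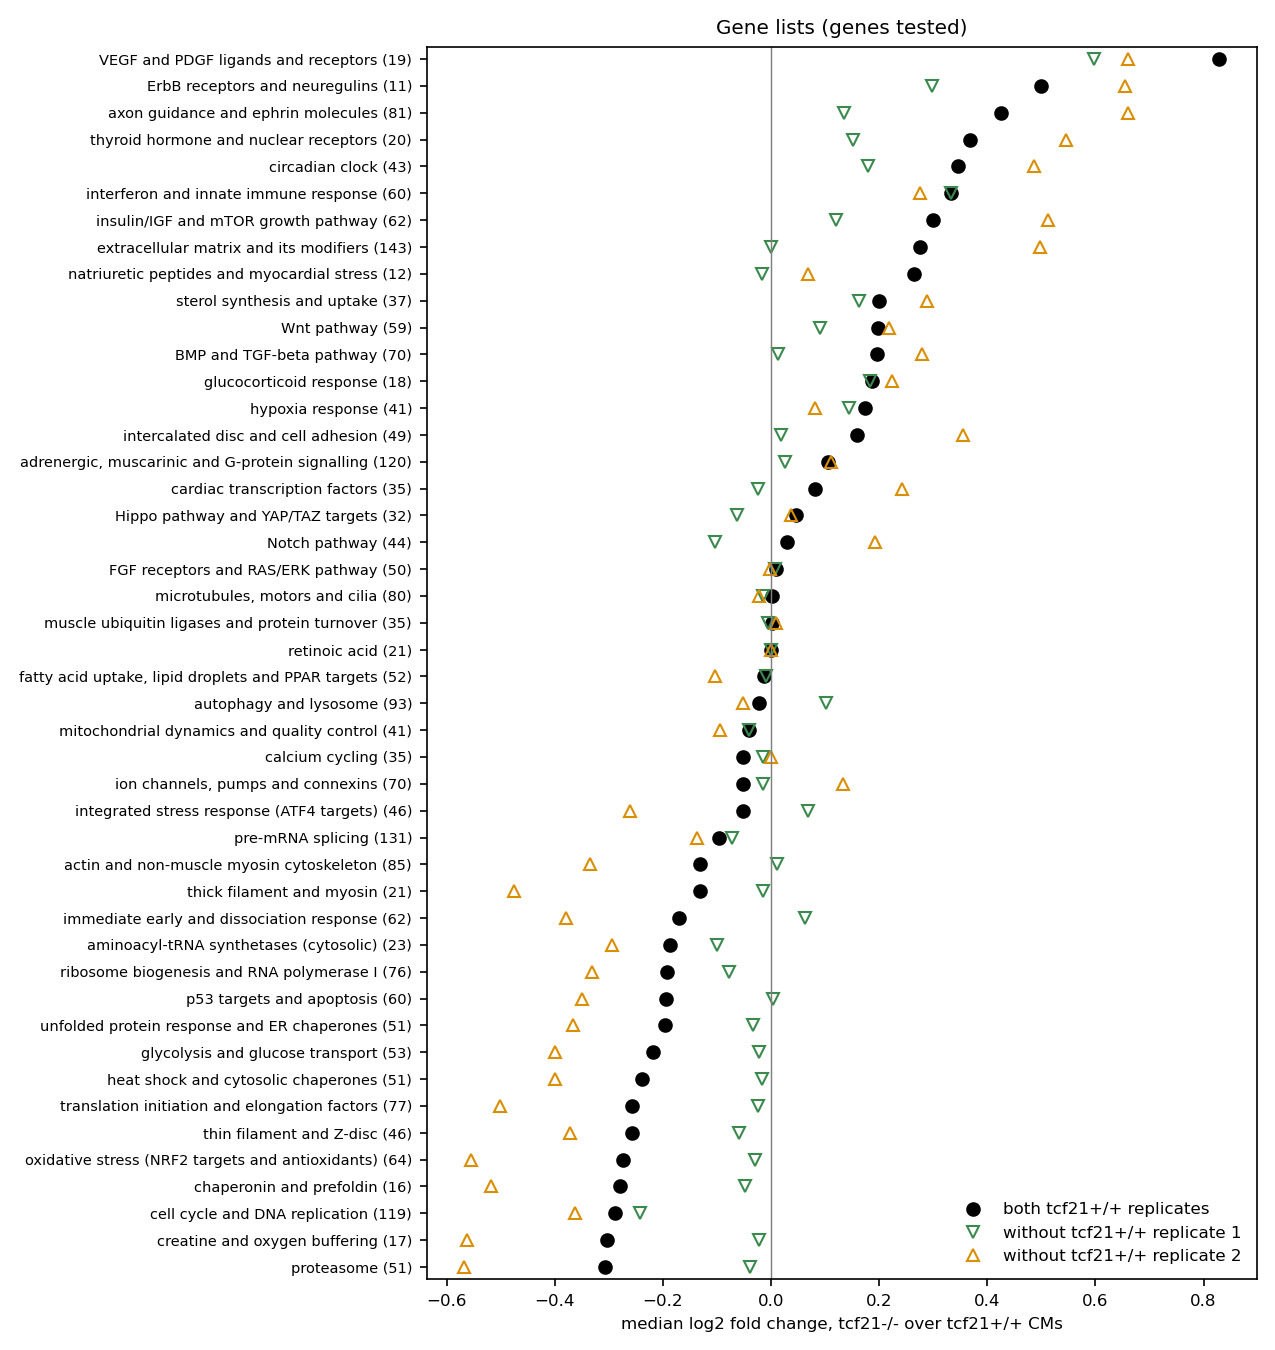
Median log2 fold change of tcf21-/- over tcf21+/+ CMs (x axis) for the 46 gene lists (y axis, number of genes tested in brackets), with both tcf21+/+ replicates (black circles), without replicate 1 (green triangles pointing down) and without replicate 2 (orange triangles pointing up). The cell cycle list keeps medians of -0.243 and -0.363 without either library, while the proteasome list has -0.0381 without replicate 1 and -0.567 without replicate 2.

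Among the 11 lists that kept their direction without tcf21+/+ replicate 1, the cell cycle list was the one with a negative median. Of the 119 genes of the cell cycle and DNA replication tested, 54 (45.4%) had both tcf21-/- values below both tcf21+/+ values and 6 (5.04%) had both above, against 19.3% and 20.6% over all genes. At an unadjusted p under 0.05, 21 were lower and 2 higher, and none was called. The median log2 fold change was -0.288, and it was -0.243 without tcf21+/+ replicate 1 and -0.363 without replicate 2, against 0.0333 in EpiCs. On estimated reads the median was 0.00438, against 0.271 over all genes. The spindle checkpoint gene mad2l1 had 105 and 172 in tcf21-/- CMs, against 420 and 271 in tcf21+/+ CMs. The kinetochore gene spc24 had 132 and 172 in tcf21-/- CMs, against 437 and 242 in tcf21+/+ CMs. rpa2, for a subunit of the protein that covers single-stranded DNA at replication forks, had 784 and 812 in tcf21-/- CMs, against 1523 and 1072 in tcf21+/+ CMs. In each of these 3 the genotypes did not overlap, and tcf21+/+ replicate 1 was the highest of the 4 libraries.

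Genes of the circadian clock were on the higher side. In zebrafish the clock runs in each tissue and some of its genes, per2 and cry1a among them, respond to light. per2 had 3462 and 3353 in tcf21-/- CMs, against 1573 and 1853 in tcf21+/+ CMs (log2 fold change 1.0 ± 0.15, adjusted p = 0.0434). In EpiCs per2 had 2713 and 2787 in tcf21-/- libraries, against 1334 and 1201 in tcf21+/+ libraries (1.12, adjusted p = 0.0404). Its genotype effects in the cell types differed by -0.12 ± 0.21 on the log2 scale. The cryptochrome gene cry1a had 3321 and 3205 in tcf21-/- CMs, against 2227 and 2239 in tcf21+/+ CMs (0.55 ± 0.14), and 2076 and 2267 in tcf21-/- EpiCs, against 1199 and 1184 in tcf21+/+ EpiCs. The photolyase gene cry5 had 316 and 222 in tcf21-/- CMs, against 90 and 107 in tcf21+/+ CMs. Of the 43 clock genes tested, 20 (46.5%) did not overlap and were higher, 3 (6.98%) were lower and 1 was called. The median was 0.346, and 0.180 without tcf21+/+ replicate 1, with 0.236 in EpiCs. The time of day of each dissection and sort is not given in the sources used here, and its part in these values was not tested.

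**Figure D5:**
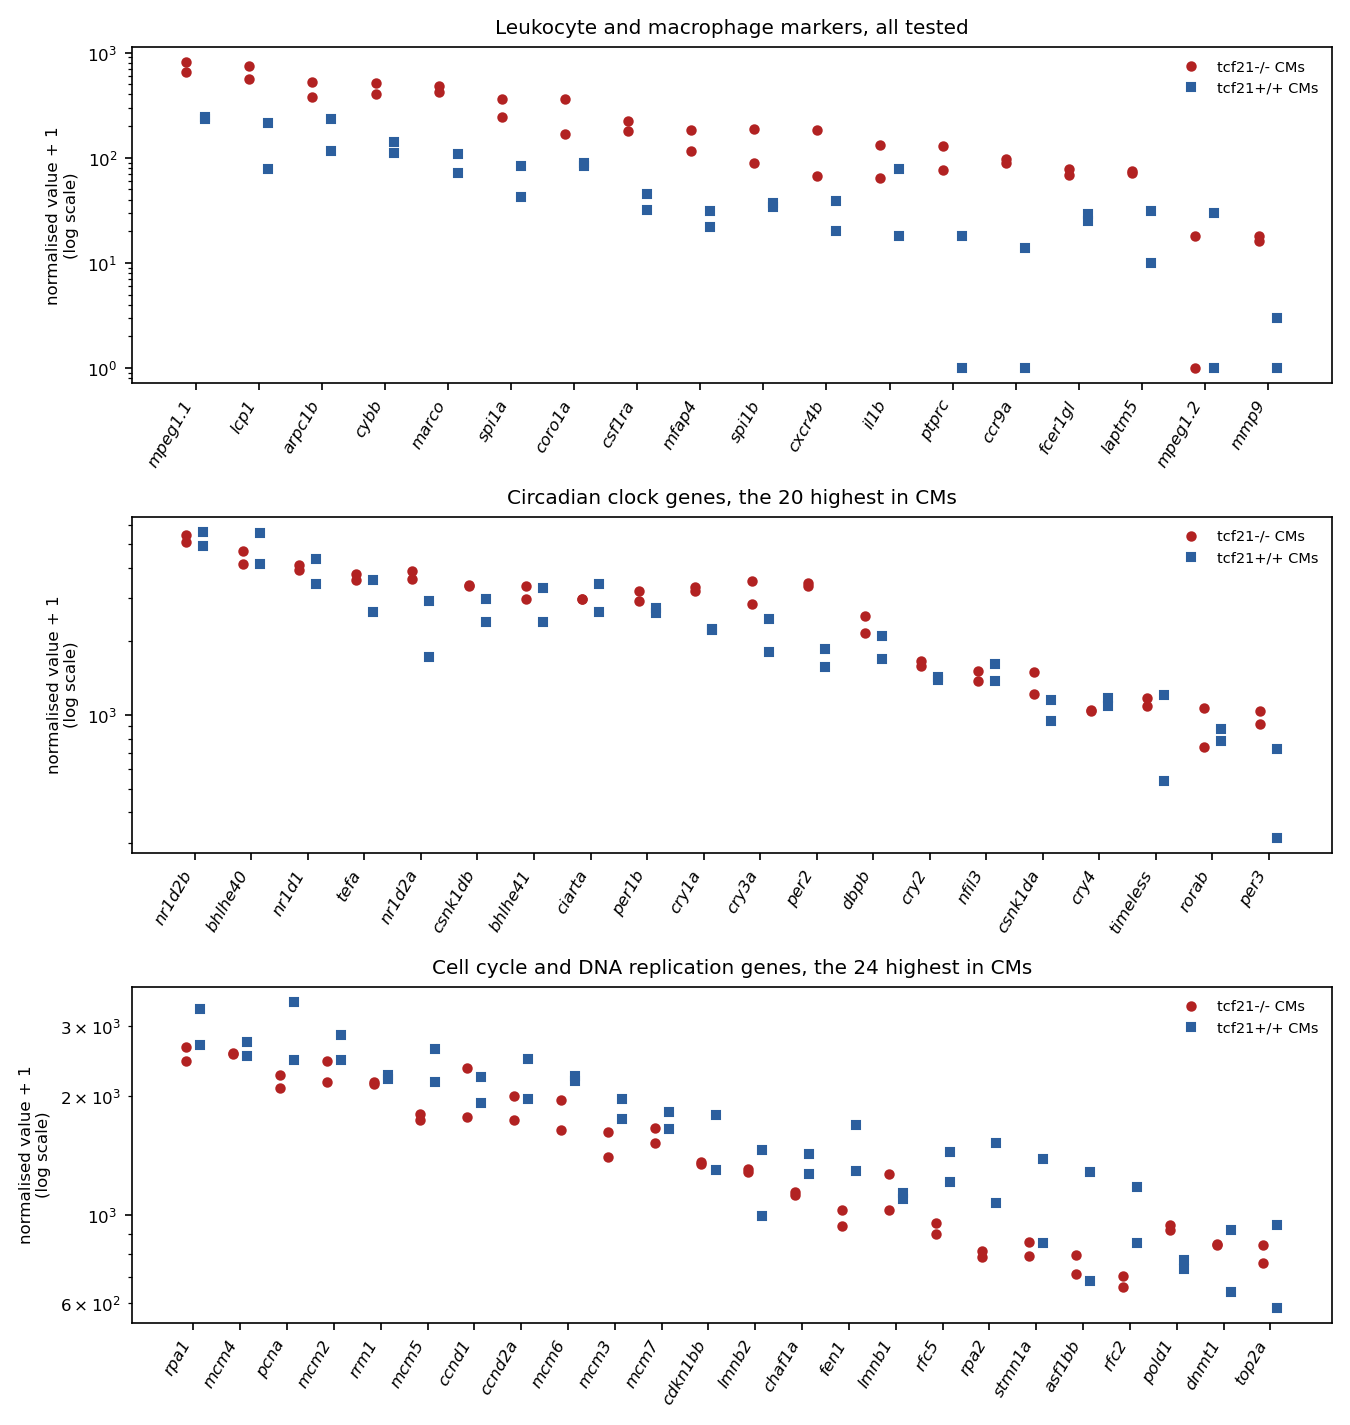
Normalised value plus 1 (y axes, log scale) in each CM library of the 18 leukocyte and macrophage markers tested (top), the 20 highest clock genes (middle) and the 24 highest genes of the cell cycle and DNA replication (bottom), with 1 red circle per tcf21-/- library and 1 blue square per tcf21+/+ library. The tcf21-/- values lie above the tcf21+/+ values in 16 of the 18 leukocyte markers, and per2 stands at 3462 and 3353 in tcf21-/- CMs, above 1573 and 1853 in tcf21+/+ CMs.

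Genes of the interferon and innate immune response were also higher in part. Of 60 tested, 24 (40.0%) did not overlap and were higher, 8 (13.3%) were lower and 1, mhc1uba, was called. The median of 0.332 was 0.333 without tcf21+/+ replicate 1, against -0.042 in EpiCs. tap2t, for a peptide transporter of antigen presentation, had 202 and 162 in tcf21-/- CMs, against 47 and 51 in tcf21+/+ CMs (log2 fold change 1.86 ± 0.35, adjusted p = 0.0914). trim25, for a ubiquitin ligase of the RNA sensor pathway, had 389 and 395 in tcf21-/- CMs, against 160 and 182 in tcf21+/+ CMs (1.2 ± 0.23, adjusted p = 0.0975). Both missed the threshold. The leukocyte marker sums were also higher in tcf21-/- CMs, and their part in these values was not tested.

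Among growth factor pathways the lists for insulin and mTOR, for ErbB and for VEGF and PDGF had positive medians with and without tcf21+/+ replicate 1. Signalling by insulin-like growth factors through PI3K, AKT and mTOR controls protein synthesis and cell size. Of its 62 genes tested, 27 (43.5%) did not overlap and were higher and 4 (6.45%) lower. The median was 0.299, and 0.120 without that library, with 0.125 in EpiCs. irs2a, for an insulin receptor substrate, had 1035 and 1262 in tcf21-/- CMs, against 400 and 583 in tcf21+/+ CMs. akt3b had 73 and 78 in tcf21-/- CMs, against 22 and 28 in tcf21+/+ CMs, and pik3r2, for a regulatory subunit of PI3K, had 1406 and 1708 in tcf21-/- CMs, against 679 and 1179 in tcf21+/+ CMs. No gene of the list was called.

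ErbB receptors are known for neuregulin signals that drive trabeculation of the zebrafish ventricle. Of 11 genes tested, 5 (45.5%) did not overlap and were higher and 0 were lower. The median was 0.50, and 0.297 without tcf21+/+ replicate 1, with 0.251 in EpiCs. lrig1, for a negative regulator of ErbB receptors, had 828 and 829 in tcf21-/- CMs, against 437 and 674 in tcf21+/+ CMs. erbin, for a protein that binds ErbB2, had 1103 and 1042 in tcf21-/- CMs, against 618 and 929 in tcf21+/+ CMs.

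Of the 19 genes of VEGF and PDGF ligands and receptors tested, 8 (42.1%) did not overlap and were higher and 2 (10.5%) lower. The median was 0.829, and 0.598 without tcf21+/+ replicate 1, with 0.121 in EpiCs. The co-receptor gene nrp1a had 2458 and 2652 in tcf21-/- CMs, against 1614 and 1686 in tcf21+/+ CMs (log2 fold change 0.63 ± 0.13, adjusted p = 0.124). nrp2b had 671 and 739 in tcf21-/- CMs, against 239 and 366 in tcf21+/+ CMs (1.25 ± 0.40). The list holds the called gene pdgfc on the lower side.

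The FGF list had a median close to that of all genes. Of 50 genes of FGF receptors and the RAS/ERK cascade, 15 (30.0%) did not overlap and were higher and 9 (18%) lower, the median was 0.00879, and 0.00682 without tcf21+/+ replicate 1, and fgfr4 was the 1 gene called. Another receptor, fgfr1b, had 19 and 7 in tcf21-/- CMs, against 3 and 3 in tcf21+/+ CMs. The scaffold gene ksr1a had 5 and 11 in tcf21-/- CMs, against 0 and 1 in tcf21+/+ CMs. Feedback and target genes of the pathway lay outside the naming rule and were chosen after their values were seen. spry4 had 5328 and 4139 in tcf21-/- CMs, against 5559 and 4446 in tcf21+/+ CMs, and etv5b had 3244 and 2761 in tcf21-/- CMs, against 3004 and 2983 in tcf21+/+ CMs, with overlap in both.

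Guidance receptors, which steer axons and also cells of the heart, had 34 of 81 genes (42.0%) with no overlap on the higher side and 7 (8.64%) on the lower side, with 1, plxna3, called. The median was 0.425, and 0.135 without tcf21+/+ replicate 1, in genes with a median span of 97.4 kb. In EpiCs the median of this list was 0.211. robo1, for a Slit receptor, had 167 and 184 in tcf21-/- CMs, against 49 and 80 in tcf21+/+ CMs (log2 fold change 1.47 ± 0.29, adjusted p = 0.108). In the BMP and TGF-beta pathway the median was 0.196, and 0.0132 without that library, over 70 genes, with 0.214 in EpiCs. tgfbr3, for the TGF-beta co-receptor betaglycan, had 1003 and 999 in tcf21-/- CMs, against 388 and 513 in tcf21+/+ CMs (1.16 ± 0.21, adjusted p = 0.0764). inhbb, for an activin subunit, had 314 and 394 in tcf21-/- CMs, against 673 and 597 in tcf21+/+ CMs (-0.85 ± 0.18, adjusted p = 0.117). id1, a direct target of BMP signals, had 164 and 152 in tcf21-/- CMs, against 335 and 299 in tcf21+/+ CMs (-1.0 ± 0.23, adjusted p = 0.167).

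The Wnt list had 24 of 59 genes (40.7%) on the higher side and 7 (11.9%) on the lower side, with a median of 0.197, and 0.0903 without tcf21+/+ replicate 1. kremen1, for a receptor of the Wnt inhibitor Dickkopf, had 541 and 302 in tcf21-/- CMs, against 110 and 147 in tcf21+/+ CMs. wnt5b, a Wnt ligand, had 782 and 684 in tcf21-/- CMs, against 467 and 407 in tcf21+/+ CMs. Notch genes had a median of 0.029 over 44, which turned to -0.104 without that library. dlc, a Notch ligand, had 10 and 48 in tcf21-/- CMs, against 2 and 5 in tcf21+/+ CMs, and her9, of the Hairy family of repressors, had 764 and 775 in tcf21-/- CMs, against 1936 and 894 in tcf21+/+ CMs. Hippo pathway genes and their targets had a median of 0.0457 over 32, which turned to -0.0625 without it. In that list ajuba, for a LIM protein, had 597 and 823 in tcf21-/- CMs, against 406 and 431 in tcf21+/+ CMs, tgfb2 had 454 and 433 in tcf21-/- CMs, against 112 and 264 in tcf21+/+ CMs, and the matricellular target ccn2a had 1163 and 986 in tcf21-/- CMs, against 1549 and 1514 in tcf21+/+ CMs. Retinoic acid genes had a median of 0 over 21, also without it, and the receptor gene rarga had 519 and 457 in tcf21-/- CMs, against 271 and 293 in tcf21+/+ CMs.

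Nuclear receptors and hormone responses followed. Of 20 genes of thyroid hormone and other nuclear receptors, 10 (50%) did not overlap and were higher and 0 were lower. The median was 0.368, and 0.151 without tcf21+/+ replicate 1, with 0.268 in EpiCs. The thyroid hormone receptor gene thrab had 64 and 107 in tcf21-/- CMs, against 24 and 22 in tcf21+/+ CMs. The corepressor gene ncor1 had 2987 and 2362 in tcf21-/- CMs, against 1038 and 2149 in tcf21+/+ CMs, where the tcf21+/+ libraries were far apart. The glucocorticoid list had a median of 0.187 over 18 genes, and 0.183 without that library. fkbp5, a target of the glucocorticoid receptor, had 2871 and 2306 in tcf21-/- CMs, against 1810 and 1573 in tcf21+/+ CMs, and the receptor gene nr3c1 had 2000 and 2168 in tcf21-/- CMs, against 1200 and 1712 in tcf21+/+ CMs. zbtb16b was at the other end, at 2 and 0 in tcf21-/- CMs, against 16 and 12 in tcf21+/+ CMs. None of these was called.

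Sterol synthesis and uptake had 15 of 37 genes (40.5%) with no overlap on the higher side and 2 (5.41%) on the lower side. The median was 0.199, and 0.163 without tcf21+/+ replicate 1, against -0.038 in EpiCs. cyp51 and tm7sf2 encode enzymes of cholesterol synthesis. cyp51 had 268 and 354 in tcf21-/- CMs, against 129 and 123 in tcf21+/+ CMs (log2 fold change 1.28 ± 0.35), and tm7sf2 had 104 and 115 in tcf21-/- CMs, against 58 and 27 in tcf21+/+ CMs. srebf2, for the transcription factor of this pathway, had 982 and 1209 in tcf21-/- CMs, against 414 and 795 in tcf21+/+ CMs. In the list of fatty acid uptake, lipid droplets and PPAR targets the median was -0.0121 over 52 genes, and -0.00966 without that library. acsl1a, which activates fatty acids for oxidation, had 792 and 833 in tcf21-/- CMs, against 1546 and 1543 in tcf21+/+ CMs (-0.93 ± 0.17, adjusted p = 0.0914). elovl1b, for a fatty acid elongase, had 815 and 698 in tcf21-/- CMs, against 407 and 349 in tcf21+/+ CMs (1.0 ± 0.19, adjusted p = 0.0975).

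The negative medians of glycolysis and of creatine genes shrank without tcf21+/+ replicate 1, while most members stayed negative. Glycolysis and glucose transport had a median of -0.218 over 53 genes, and -0.0223 without that library. With and without it, 20 genes of this list had a positive and 33 a negative log2 fold change. Its glycolytic gene gapdhs had 1815 and 1643 in tcf21-/- CMs, against 2693 and 2038 in tcf21+/+ CMs, and pgam1b had 218 and 234 in tcf21-/- CMs, against 404 and 450 in tcf21+/+ CMs. The glucose transporter gene slc2a12 was higher, at 536 and 809 in tcf21-/- CMs, against 396 and 476 in tcf21+/+ CMs. Creatine and oxygen buffering had a median of -0.304 over 17 genes, and -0.0230 without tcf21+/+ replicate 1. In this list 3 genes were positive and 14 negative, and 5 and 12 without it. Mitochondrial dynamics and quality control had a median of -0.0402 over 41 genes, and -0.0408 without it. In the hypoxia response the median was 0.173 over 41 genes, and 0.144 without it, with 11 (26.8%) on the higher side and 7 (17.1%) on the lower side. Its member igfbp1a, for a secreted binder of insulin-like growth factors, had 42 and 18 in tcf21-/- CMs, against 167 and 106 in tcf21+/+ CMs (log2 fold change -2.23 ± 0.50, adjusted p = 0.141).

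Lists of protein synthesis, folding and breakdown had negative medians that nearly vanished without tcf21+/+ replicate 1. The proteasome had a median of -0.307 over 51 genes, and -0.0381 without that library. The chaperonin and prefoldin list had -0.279 over 16, and -0.0477 without it. Translation factors had -0.258 over 77 and -0.0232 without it, heat shock and cytosolic chaperones -0.238 over 51 and -0.0159, and the unfolded protein response -0.196 over 51 and -0.0330. The median gene span of these lists was between 10.5 and 13.1 kb, against 17.7 kb over all genes tested. Ribosome biogenesis and cytosolic aminoacyl-tRNA synthetases kept somewhat more, with -0.192 over 76 genes and -0.0779 without it, and with -0.187 over 23 genes and -0.0998 without it. In the ribosome biogenesis list nol6 had 783 and 593 in tcf21-/- CMs, against 288 and 405 in tcf21+/+ CMs, while nhp2 had 558 and 517 in tcf21-/- CMs, against 1104 and 778 in tcf21+/+ CMs. Targets of ATF4 in the integrated stress response had a median of -0.0512 over 46 genes, which turned to 0.0685 without it. Muscle ubiquitin ligases had 0.00132 over 35, and -0.0062 without it.

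Lysosomal and autophagy genes had a median of -0.0225 over 93, and 0.101 without tcf21+/+ replicate 1. scarb2a, for a membrane protein of lysosomes, had 1168 and 1171 in tcf21-/- CMs, against 624 and 576 in tcf21+/+ CMs (log2 fold change 0.96 ± 0.17, adjusted p = 0.0696). The cathepsin gene ctsk had 94 and 113 in tcf21-/- CMs, against 22 and 52 in tcf21+/+ CMs. grnb, for a granulin, had 478 and 571 in tcf21-/- CMs, against 343 and 321 in tcf21+/+ CMs. Of the 93, 46 had a positive and 47 a negative log2 fold change. These 3 genes had all EpiC values above all CM values. The leukocyte sums given above were also higher in tcf21-/- CMs, and the part of leukocyte RNA in these 3 genes was not tested.

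Stress lists were mixed. NRF2 targets and antioxidants had a median of -0.273 over 64 genes, and -0.0302 without tcf21+/+ replicate 1. In that list the glutathione transferase gene gstt1b had 118 and 120 in tcf21-/- CMs, against 396 and 223 in tcf21+/+ CMs, and the secreted peroxidase gene gpx3 had 277 and 282 in tcf21-/- CMs, against 55 and 11 in tcf21+/+ CMs. p53 targets and apoptosis genes had -0.195 over 60, and 0.00359 without that library. Their member tp53inp1 had 414 and 401 in tcf21-/- CMs, against 208 and 200 in tcf21+/+ CMs (log2 fold change 0.99 ± 0.22, adjusted p = 0.141), and casp3b had 7 and 15 in tcf21-/- CMs, against 42 and 54 in tcf21+/+ CMs. Immediate early genes, which respond within minutes to stress and to tissue dissociation, had -0.171 over 62, and 0.0625 without that library. At an unadjusted p under 0.05, 3 of them (4.84%) were higher and 0 lower, against 7.33% and 4.88% over all genes.

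The contractile apparatus had no called member. Thick filament genes had a median of -0.132 over 21 and thin filament and Z-disc genes -0.258 over 46, and without tcf21+/+ replicate 1 these were -0.0144 and -0.0596. In the Z-disc list tpm4b, at low level, was higher, with 38 and 56 in tcf21-/- CMs, against 24 and 14 in tcf21+/+ CMs. On the lower side tpm1 had 169 and 330 in tcf21-/- CMs, against 445 and 462 in tcf21+/+ CMs, and xirp2a had 1366 and 1074 in tcf21-/- CMs, against 1850 and 1745 in tcf21+/+ CMs. Calcium cycling genes had a median of -0.0510 over 35, and -0.0145 without that library. Besides stim1b, the inositol trisphosphate receptor genes itpr1a, at 66 and 135 in tcf21-/- CMs, against 13 and 27 in tcf21+/+ CMs, and itpr2, at 56 and 35 in tcf21-/- CMs, against 2 and 10 in tcf21+/+ CMs, had the smallest p-values there. Ion channels, pumps and connexins had a median of -0.0510 over 70, and -0.0145 without it. Cardiac transcription factors had 0.0811 over 35, which turned to -0.0234 without it, and mef2d had 3216 and 3441 in tcf21-/- CMs, against 2073 and 2715 in tcf21+/+ CMs. In the same list meis1a was lower, at 200 and 206 in tcf21-/- CMs, against 256 and 323 in tcf21+/+ CMs.

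Genes of myocardial load had values on both sides. Of 12 genes of natriuretic peptides and myocardial stress, npr2 was the 1 called. ankrd1a, a gene induced by stretch in mammalian heart, had 326 and 126 in tcf21-/- CMs, against 1142 and 581 in tcf21+/+ CMs (log2 fold change -2.0 ± 0.56, adjusted p = 0.262). The clearance receptor gene npr3 had 1153 and 1331 in tcf21-/- CMs, against 818 and 927 in tcf21+/+ CMs. The median of the list was 0.264, and -0.0167 without tcf21+/+ replicate 1.

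Cell contacts and the cytoskeleton had few genes near the threshold. In the intercalated disc list, with a median of 0.159 over 49 genes and 0.0188 without tcf21+/+ replicate 1, the junction gene tjp1b had 1639 and 1695 in tcf21-/- CMs, against 513 and 800 in tcf21+/+ CMs (log2 fold change 1.38 ± 0.24, adjusted p = 0.0764). parvab, for a parvin at integrin contacts, had 185 and 77 in tcf21-/- CMs, against 363 and 539 in tcf21+/+ CMs (-1.88 ± 0.38, adjusted p = 0.115). Actin cytoskeleton genes had a median of -0.131 over 85, and 0.0106 without that library, and held the called gene myh9a. Its keratin krt18b had 196 and 389 in tcf21-/- CMs, against 64 and 104 in tcf21+/+ CMs (1.75 ± 0.34, adjusted p = 0.101). Microtubule, motor and cilium genes had a median of 0.00148 over 80, and -0.0152 without it, and tuba1a, for a tubulin, had 38 and 26 in tcf21-/- CMs, against 94 and 72 in tcf21+/+ CMs.

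The extracellular matrix list had the most called genes of the 46, 3 higher (fn1a, adamts2 and dcn) and 2 lower (loxl1 and efemp2a) of 143 tested. Of the 143, 34 (23.8%) did not overlap and were higher and 9 (6.29%) lower, and at an unadjusted p under 0.05 the shares were 16.1% and 5.59%, against 7.33% and 4.88% over all genes. Its median was 0.276, and 0 without tcf21+/+ replicate 1, against 0.183 in EpiCs. The fibroblast marker sums given above were higher in both tcf21-/- libraries, but only just in replicate 1, at 3190 against 3167 in tcf21+/+ replicate 2. The median of those markers was 0.194, and -0.108 without tcf21+/+ replicate 1. dcn is on both lists, and the part of fibroblast RNA in these values was not tested.

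Genes for RNA processing had medians below 0. Splicing genes had -0.0963 over 131, and -0.0724 without tcf21+/+ replicate 1, with 37 (28.2%) on the lower side and 20 (15.3%) on the higher side. srsf1a, for a splicing factor, had 495 and 523 in tcf21-/- CMs, against 1134 and 841 in tcf21+/+ CMs (log2 fold change -0.94 ± 0.20, adjusted p = 0.134). snrpf, for a core protein of the spliceosome, had 329 and 339 in tcf21-/- CMs, against 766 and 474 in tcf21+/+ CMs. rbm47, an RNA-binding protein gene at lower level, had 76 and 103 in tcf21-/- CMs, against 9 and 1 in tcf21+/+ CMs (4.32 ± 0.75, adjusted p = 0.069). The list of G-protein signalling had a median of 0.105 over 120, and 0.0266 without that library.

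The Gene Ontology terms deposited with the table gave another view, over 1464 terms of 20 to 300 genes. Terms named for ribosomes, mitochondria or the respiratory chain were left out before ranking, so the ranking does not cover them. Terms holding the same genes were listed once. Of the genes tested, 6905 had a term. The 6 with the highest medians were negative regulation of response to external stimulus, peptidyl-tyrosine modification, regulation of axon extension, peptidyl-tyrosine phosphorylation, protein autophosphorylation and axon extension, with medians between 0.579 and 0.652. Without tcf21+/+ replicate 1 the first of them had 0.00467 and the other terms had 0.137 to 0.183. Among the terms ranked, the 6 with the lowest medians were nucleolar part, DNA-directed RNA polymerase activity, small nuclear ribonucleoprotein complex, DNA-directed RNA polymerase II, rRNA binding and cis-trans isomerase activity, between -0.489 and -0.370. Without that library, nucleolar part had -0.210 and RNA polymerase activity -0.222, and the other 4 had medians from -0.135 to -0.0885. The terms share genes, and they were picked by their medians, so these values are a description.

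The called genes lay on many chromosomes. Chromosome 23, which carries tcf21, had 5 of its 618 tested genes called (0.809%, against 0.249% higher and 0.118% lower over all genes tested), tent5ab and hck higher and atp6ap1b, noc2l and csrp1a lower, at 5.5 to 25.8 Mb from tcf21. Chromosome 7 had the highest share, 0.929%, of 861 tested genes. atp6ap1b, the nearest to tcf21 at 5.5 Mb, also had lower values in EpiCs, at 559 and 563 in tcf21-/- libraries, against 1171 and 1265 in tcf21+/+ libraries (adjusted p = 0.0715). The next nearest, noc2l and tent5ab, also moved in EpiCs in the same direction as in CMs, with no overlap. noc2l had 772 and 560 in tcf21-/- EpiCs, against 1087 and 1254 in tcf21+/+ EpiCs (adjusted p = 0.312). tent5ab had 552 and 657 in tcf21-/- EpiCs, against 299 and 235 in tcf21+/+ EpiCs (adjusted p = 0.732). hck and csrp1a, which lay further away, overlapped between the genotypes in EpiCs. Because the genotypes had different parents, alleles linked to tcf21 and the mutation itself cannot be told apart.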

How the data were processed

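RNA was amplified with SMART-Seq v4 from sorted cells, and 8 libraries of fragmented full-length cDNA were sequenced single-end, with no strand stated, so reads of a gene and an overlapping antisense gene cannot be told apart. By the submitters' processing notes and the methods, the authors trimmed reads (Trimmomatic 0.39), aligned them to danRer11 (GRCz11) with STAR 2.7.3a and counted them per gene with featureCounts 1.6.5, leaving out reads on several genes or positions, so near-identical paralogs are undercounted. The authors then normalised with DESeq2 1.26.0, per the methods. As deposited, the signal of a gene is its count divided by 1 factor per library and rounded. Because of the rounding, whole reads were not recovered and no count test was run. All value columns were mapped by name to samples (0 were not).

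Genes whose values averaged 10 or more were compared as log2(value + 1). The linear model was limma's (version 3.58.1, R 4.3.3), moderated with a trend on abundance, and all 8 libraries shared 1 estimate of the spread. Tests were two-sided, adjusted by Benjamini-Hochberg over all 16077 genes, with fold changes on the log2(value + 1) scale, which understates changes of low genes. A permutation of 2 against 2 libraries cannot go below an exact p of 0.333. The fit was tested on simulated data with independent spread in each library, so without a difference by gene span between the tcf21+/+ libraries. Of 200 genes changed by 1.5 on the log2 scale it called 54, and 2 unchanged genes. Of 200 changed by 3.0 it called 165, and 9 unchanged genes. Python 3.11.15 made the tables (pandas 2.3.3, numpy 2.4.6) and the figures (matplotlib 3.10.9).

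Named are all called genes, with full values at a mean CM value of at least 50 or by role. Also named are the targeted gene, fgfr4 and 5 CM markers. Further list members were drawn from up to 3 per list with the smallest unadjusted p. Not all of these are named, so a named member need not be the strongest of its list. Some cell type markers, spry4 and etv5b were named outside this rule. The members and lists were chosen with earlier results of these data known. Alternatives covered pseudocounts, filters, scalings, fold limits, quality weights, a fit without the trend, CM libraries alone, each library left out in turn, and a block for the replicate number. Estimated reads without scaling was chosen after seeing the data. Imaging and RT-qPCR were not analysed here.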

Additional observations from a re-analysis of the deposited data

How the results depend on the processing

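The counts of called genes, 40 higher and 19 lower, moved by more than 1.5 times under several alternatives, and the cause was not tested. With a pseudocount of 5 the fit called 14 higher and 7 lower, with no filter on low values 15 and 7, and after quantile normalization 23 higher, with 17 lower. The CM libraries alone, library quality weights and estimated reads without scaling each called 0 higher and 0 lower. Counts without 1 library lay between 0 and 961 higher, between 0 and 397 lower, and between 0 and 119 for the difference between cell types. That difference, 0 genes in the fit reported, was called for 58 genes without the abundance trend and for 9 after quantile normalization. The replicate block left 1 gene higher and 0 lower, and 0 for the difference between cell types. Libraries of the same number shared only the number, since their deviations from group means correlated between -0.0805 and 0.0669. TMM scaling, a pseudocount of 0.5, a mean of at least 50, no fold limit and a log2 limit of 1 kept counts within 1.5 times, at 30 to 41 higher and 15 to 19 lower. Without the trend 58 were higher and 27 lower. The 59 called genes were each called in 2 to 14 of 19 alternative fits (median 6). Of 1178 list medians recomputed, 131 moved by more than the replicate spread. edgeR and DESeq2 were not run, as whole reads were not recovered.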
